A study of Mus musculus with 12 samples.

Results

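The genes described here are 10 that mark the support cells of the pancreas: the receptors Pdgfra and Pdgfrb, the surface proteins Thy1 and Cspg4, the membrane protease Fap, the signalling regulator Rgs5, the contractile genes Acta2 and Tagln, and the filament genes Des and Vim. They were chosen by name as markers of stellate cells, pericytes and myofibroblasts, and are 10 of 18194 genes with a probe set of their own on the array. Of the 45101 probe sets, 22 were annotated to exactly 1 of these genes, and each gene was represented by the probe set with the highest mean over the 12 arrays. The arrays measured RNA from whole pancreas of mice aged 8 weeks, 1 array per mouse and 3 mice per group. The groups were C57BL6/NHsd mice (from Harlan, NHsd below) given saline, NHsd mice with chronic pancreatitis induced by cerulein, C57BL6/J mice (from Jackson, J below) given saline, and J mice with cerulein-induced chronic pancreatitis. Cerulein is an analogue of cholecystokinin that overstimulates the enzyme-secreting acinar cells. The labels give the saline mice as female and no sex for the cerulein mice, and the dose and number of injections are not given in the sources used here. As a check of the labelled tissue, each of 10 acinar genes was at log2 6.32 or above on all 12 arrays.

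Pancreatic stellate cells lie around acini and small ducts, store vitamin A when quiescent, and turn into matrix-producing myofibroblasts when the gland is injured. Pericytes are mural cells that wrap capillaries, and they share the PDGF receptor beta with stellate cells. Both receptors are tyrosine kinases that bind platelet-derived growth factors and drive the division and migration of mesenchymal cells. Smooth muscle actin (Acta2) and transgelin (Tagln) belong to the contractile apparatus that a fibroblast builds as it becomes a myofibroblast, under control of serum response factor, which binds the CArG box.

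RefSeq (GRCm38.p6) gave a promoter for 6 of the 10 genes: Pdgfra, Rgs5, Acta2, Des, Vim and Cspg4. The 250 bases before the annotated start, read 5′ to 3′ on the gene's strand, are shown for 1 gene of the contractile apparatus and for 2 genes with large changes after cerulein. Capitals mark matches, on either strand, to the CArG box, to CArG-like sequences in which 1 of the 6 central bases is not A or T, to TATAAA, or to GGGCGG. No marked match overlaps another.
Acta2 (chr19:34255374-34255623, minus strand): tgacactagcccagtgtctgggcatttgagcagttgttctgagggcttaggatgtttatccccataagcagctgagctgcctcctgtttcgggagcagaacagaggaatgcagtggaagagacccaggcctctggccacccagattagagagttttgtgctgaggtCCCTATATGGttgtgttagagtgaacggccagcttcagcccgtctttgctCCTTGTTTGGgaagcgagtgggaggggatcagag
Vim (chr2:13574061-13574310, plus strand): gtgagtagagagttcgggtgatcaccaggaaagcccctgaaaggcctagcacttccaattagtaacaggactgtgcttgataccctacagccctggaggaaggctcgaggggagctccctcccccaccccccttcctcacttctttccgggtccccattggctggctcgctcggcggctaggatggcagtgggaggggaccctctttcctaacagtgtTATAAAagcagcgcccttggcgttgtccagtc
Rgs5 (chr1:169655251-169655500, plus strand): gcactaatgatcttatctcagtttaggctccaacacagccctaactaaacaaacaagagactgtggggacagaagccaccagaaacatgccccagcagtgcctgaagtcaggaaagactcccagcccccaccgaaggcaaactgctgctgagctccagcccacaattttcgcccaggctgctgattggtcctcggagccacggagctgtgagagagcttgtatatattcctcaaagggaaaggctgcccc
The Acta2 window held 2 CArG-like matches, which start 84 and 34 bases before the annotated start. A CArG-like match was present in 7.24% of 32851 promoter windows of this length, and a CArG box with 6 central A or T bases in 1.47%, none of them among the 6 genes. The Vim window held 1 TATAAA, found in 12.4% of all windows, and the Rgs5 window held none of the 4 motifs. Of the other 3 windows, those of Des and Cspg4 held 2 GGGCGG matches each (32.7% of all windows hold at least 1) and that of Pdgfra none of the 4 motifs.

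The signals are log2 values from 2.39, which is the lowest value on each of the 12 arrays, to 16.4. A gene was tested where its probe set exceeded log2 4 on at least 3 arrays, which 8 of the 10 genes and 8505 genes in all did. Between 26.3 and 27.0% of all probe sets exceeded log2 4 on the saline arrays, and between 29.5 and 31.3% on the cerulein arrays. Differences were tested with limma over the 12 arrays, two-sided, and a gene was called at an adjusted p below 0.05 over all 8505 genes. After cerulein the median tested gene was 0.49 log2 higher than in saline. A change is therefore also given with the arrays shifted to equal medians of the 8505 tested genes, called equal medians below. Over all probe sets the array medians were 2.52 to 2.54 on cerulein and 2.60 to 2.65 on saline arrays. With no filter on low values the median change was 0. The controls added from outside the sample were lower on the cerulein arrays. The mean of 9 hybridization spike-in probe sets was 8.36 ± 0.41 on saline and 6.56 ± 0.14 on cerulein arrays (SD over 6 arrays each). This gave p = 0.00216 in a two-sided exact permutation test, its lowest possible value. The mean of 15 poly-A spike-in probe sets was 8.35 ± 0.35 on saline and 6.16 ± 0.47 on cerulein arrays (exact permutation p = 0.00216). The gap between the 3′ and 5′ probe sets of Gapdh, a sign of RNA integrity, was 1.22 ± 0.20 on saline and 0.83 ± 0.13 on cerulein arrays (exact permutation p = 0.00649, unchanged by adjustment over the 3 measures). The part of these measures in the changes below was not tested. The labels name no processing batch, so treatment and array handling cannot be told apart. In whole tissue, more cells of a type and more RNA per cell cannot be told apart either.

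In the mean of both substrains, 7 of the 10 genes were called higher after cerulein, none was called lower, Tagln was not called, and Des and Cspg4 were too dim to test. Over all tested genes limma called 69.4% in this comparison, 59.4% higher and 10.1% lower, so a call by itself is common. The same shares are the background for each gene list below. With equal medians 2262 of the 8505 genes were called higher and 3072 lower. How many of all tested genes had no overlap between treatments was not counted. The 8 tested genes ran from 0.28 for Tagln to 2.73 for Rgs5, with a median of 1.89 against 0.49 over all tested genes. With equal medians or quantile normalization 6 of the 8 were called higher, without Acta2. Thy1 passed the filter through the cerulein arrays alone, so its difference between treatments was partly set by the filter.

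Within each substrain limma called 6 of the 10 genes higher in NHsd, where it called 55.3% of all tested genes (48.7% higher, 6.6% lower), and 7 in J, where it called 55.4% (47.8% higher, 7.61% lower). None of the 10 was called lower in either. Pdgfra, Pdgfrb, Fap, Rgs5, Vim and Thy1 were called in both substrains, and Tagln in J.

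Pdgfra, the PDGF receptor alpha of fibroblasts, had signals of 4.99, 5.68 and 4.82 in NHsd saline and 5.95, 5.84 and 5.28 in J saline. After cerulein its signals were 7.41, 7.82 and 7.78 in NHsd and 6.64, 8.07 and 7.76 in J. Every cerulein array lay above every saline array, and J cerulein replicate 1 was the lowest of the cerulein arrays. The rise was 2.50 in NHsd (SE 0.34, adjusted p = 8.40e-05 by limma) and 1.80 in J (SE 0.34, adjusted p = 0.000809), or 5.67-fold and 3.49-fold. A second Pdgfra probe set averaged 4.01 ± 0.20 in saline and 3.87 ± 0.18 after cerulein (SD, n = 6 each) and so lay near log2 4 with overlapping groups. The remaining one never exceeded 2.70, so the rise rests on 1 of 3 probe sets. With the mean of the kept probe sets it was 1.20 in NHsd (adjusted p = 0.000410), 0.81 in J (adjusted p = 0.00512) and 1.01 over both, against 2.15.

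Pdgfrb, the receptor that pericytes need to reach and cover vessels, had signals of 4.66, 4.71 and 4.15 in NHsd saline and 4.16, 5.05 and 4.74 in J saline. After cerulein they were 6.43, 6.71 and 6.80 in NHsd and 5.15, 7.06 and 6.59 in J. The groups did not overlap, but J cerulein replicate 1 lay only just above the highest saline array. Pdgfrb rose by 2.14 in NHsd (SE 0.40, adjusted p = 0.000710) and by 1.62 in J (SE 0.40, adjusted p = 0.00432). Its other probe set stayed between 2.54 and 2.79 on all arrays and carried no measurable signal. Within an array, the gap between the Pdgfra and Pdgfrb signals was 0.27 wider after cerulein, which did not pass (exact permutation test over 6 against 6 arrays, two-sided, p = 0.245, adjusted p = 0.326 over 4 pairs). Without J saline replicate 1 the gap was 0.46 wider and passed (adjusted p = 0.00433), and with the mean of each gene's kept probe sets, which brings in the dim second Pdgfra probe set, it turned to -0.87 (adjusted p = 0.0115).

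Of 7 tested genes for PDGF ligands and their processing, 6 rose and only Pdgfb fell, against 59.4% higher and 10.1% lower over all tested genes. With arrays at equal medians 4 rose and Pdgfb fell. Of the 6 that rose, 1 passed the filter through the cerulein arrays alone. Pdgfd, another, averaged 3.43 in NHsd saline and 3.95 in J saline, and also needed its cerulein arrays to pass. Both calls were partly set by the filter. Pdgfd and Pdgfc encode latent ligands that need cleavage. Pdgfd rose by 2.36 (SE 0.18, adjusted p = 3.77e-07) and Pdgfc by 2.17 (SE 0.18, adjusted p = 6.80e-07). Their saline signals reached at most 4.20 and 4.49, near or below log2 4, so the size of either rise is not exact. Plat, for tissue plasminogen activator, which can activate latent PDGF-C, rose by 2.36 (SE 0.28, adjusted p = 1.30e-05). Pdgfb, the ligand that endothelial cells use to recruit pericytes, was lower at -0.48 (SE 0.17, adjusted p = 0.0217), and at -1.06 with equal medians. Limma called it in neither substrain (-0.40 in NHsd, adjusted p = 0.166, and -0.55 in J, adjusted p = 0.0621). Its signals, between 3.84 and 4.93, lay near log2 4. Pdgfa was 0.70 higher (SE 0.11, adjusted p = 0.000128), and Plau never exceeded log2 4. Pdgfc was chosen after its values were seen, as was Pdgfa.

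Fap encodes fibroblast activation protein, a serine protease of the cell surface found on activated fibroblasts. Its signals were 4.35, 4.48 and 4.11 in NHsd saline and 4.76, 4.35 and 3.88 in J saline, close to the threshold of log2 4. In the cerulein groups they were 6.64, 6.05 and 6.87 in NHsd and 6.18, 6.93 and 6.43 in J. All 6 cerulein arrays were higher than all 6 saline arrays. Fap rose by 2.20 in NHsd (SE 0.27, adjusted p = 3.91e-05) and by 2.19 in J (SE 0.27, adjusted p = 3.73e-05), the pair of estimates closest to each other among the 8 genes. No difference from the rise of Pdgfra on the same arrays was detected (0.04, exact permutation p = 0.844, adjusted p = 0.844 over 4 pairs), although with the mean of kept probe sets the gap was 1.19 (adjusted p = 0.00433).

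Thy1 (CD90) is a surface glycoprotein of fibroblasts that mouse T cells and neurons also carry. In saline all 6 arrays lay below log2 4, between 3.60 and 3.73. After cerulein the signals were 4.44, 4.49 and 5.04 in NHsd and 5.22, 5.84 and 5.10 in J. All cerulein arrays exceeded log2 4, and each J array lay above every NHsd array. Set against log2 4, Thy1 was higher by at least 1.58-fold in NHsd (adjusted p = 0.00130), and in J the bound was at least 2.61-fold higher (adjusted p = 3.25e-05). In NHsd the call ended with equal medians (0.45, adjusted p = 0.0719) and after quantile normalization (0.45, adjusted p = 0.0582). Of 9 T cell genes with a probe set, 8, including Cd3e, Cd3g, Cd3d and Cd247 of the T cell receptor complex, never exceeded log2 4 on any array. The other one, Zap70, a T cell kinase, lay between 4.15 and 4.89 on the saline arrays and at 3.61 or below after cerulein, at least 1.5-fold lower (adjusted p = 9.79e-06). It passed the filter through the saline arrays alone. Of 7 Schwann cell and neuron genes with a probe set, none was bright enough to test and 6 never exceeded log2 4.

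Vim encodes vimentin, the intermediate filament of mesenchymal cells, and was the brightest of the 10 probe sets. Its signals were 8.77, 8.57 and 8.38 in NHsd saline and 9.44, 8.54 and 8.63 in J saline. Cerulein arrays gave 10.29, 10.64 and 10.64 in NHsd and 10.75, 10.90 and 10.49 in J. No saline array reached the cerulein arrays, and J saline replicate 1 was the highest of the controls. Vim rose by 1.95 in NHsd (SE 0.22, adjusted p = 2.44e-05) and by 1.84 in J (SE 0.22, adjusted p = 3.25e-05). Its other 2 probe sets were 2.29 and 2.13 higher after cerulein, also with no overlap, so the 3 probe sets showed the same direction. Macrophages also contain vimentin, and their markers moved with it: all 14 macrophage genes rose, by a median of 3.27 (2.69 with equal medians). Of these, 4, Ms4a7 among them, passed the filter through the cerulein arrays alone; the others include the adaptor gene Tyrobp (3.97, SE 0.30, adjusted p = 2.98e-07). The summed signal of that list lay between log2 9.37 and 10.2 on saline arrays and between 12.8 and 13.6 on cerulein arrays. Its part in the rise of Vim was not tested.

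**Figure D1:**
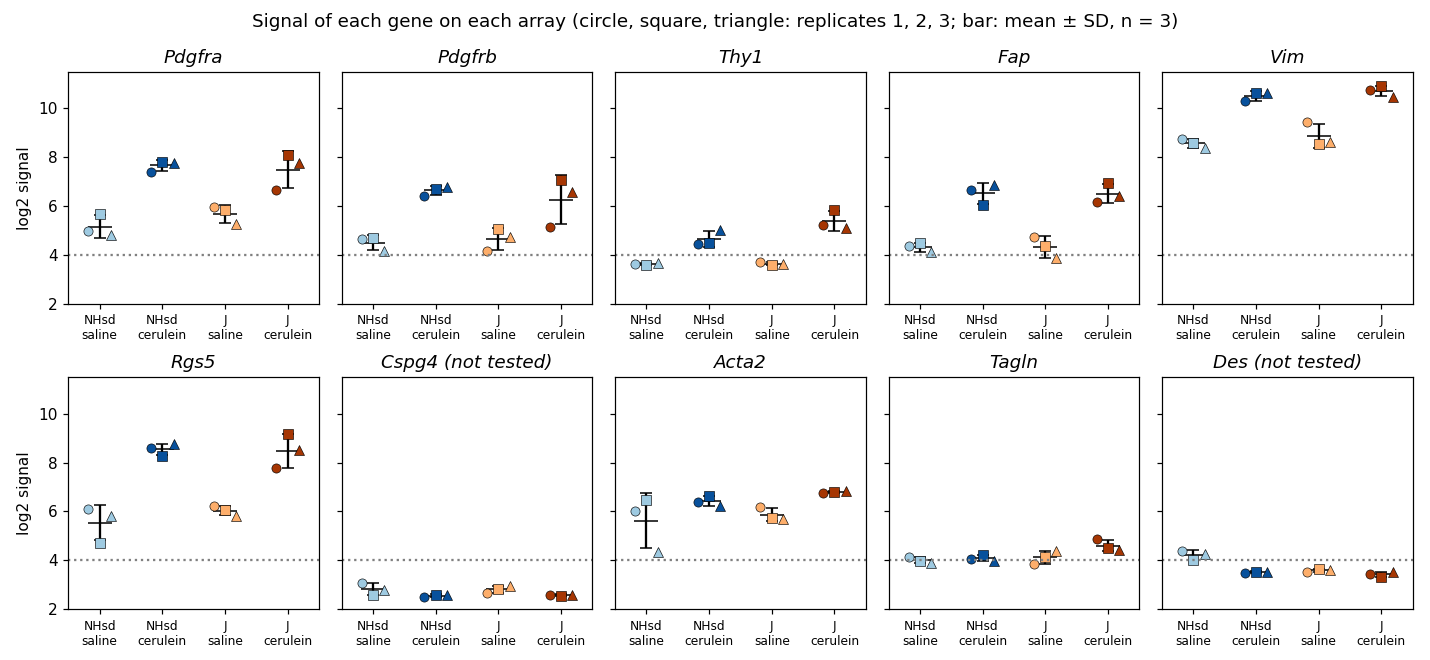
Log2 signal (y axis) of the 10 genes on each of the 12 arrays, by group (x axis); points are single mice, bars the group mean ± SD (n = 3), and the dotted line log2 4. Pdgfra, Pdgfrb, Thy1, Fap, Vim and Rgs5 have cerulein arrays above all saline arrays, Acta2 and Tagln overlap, and Cspg4 and Des lie near or below the dotted line. The share of all tested genes with no overlap was not counted.

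Rgs5, a GTPase-activating protein that dampens G protein signalling and is a classic pericyte transcript, had the largest change of the 8 genes by the brightest probe set of each. Its signals were 6.08, 4.72 and 5.82 in NHsd saline and 6.21, 6.05 and 5.82 in J saline. After cerulein they were 8.58, 8.29 and 8.75 in NHsd and 7.78, 9.17 and 8.50 in J. The groups did not overlap, and NHsd saline replicate 2 was the lowest control. Rgs5 rose by 3.00 in NHsd (SE 0.36, adjusted p = 3.58e-05) and by 2.46 in J (SE 0.36, adjusted p = 0.000143), or 7.98-fold and 5.49-fold. All 4 Rgs5 probe sets were higher on every cerulein array than on any saline array, by 0.81 to 2.73, the smaller differences coming from the dimmer probe sets. With the mean of its kept probe sets Rgs5 was 1.82 higher over both substrains, still called (adjusted p = 3.57e-07) but below Fap (2.20), Vim (2.11) and Pdgfrb (1.88).

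Endothelial genes, of the vessels that pericytes cover, were set beside Rgs5. Of 13 with a probe set, 3, the widely used markers Pecam1, Cdh5 and Tie1, never exceeded log2 4. Of 9 tested endothelial genes 3 rose and 2 fell, with a median of 0.11. With equal medians the counts were 0 up and 5 down. Tek, the angiopoietin receptor, was 0.73 higher (SE 0.16, adjusted p = 0.00111) but did not pass with equal medians. Vwf, von Willebrand factor, lay between 2.80 and 3.17 on the saline arrays and between 3.03 and 4.72 on the cerulein arrays. It was tested through its cerulein arrays alone, was called as deposited (adjusted p = 0.00164) and not with equal medians, and is given no fold. Flt1, a VEGF receptor, was lower at -0.84 (SE 0.23, adjusted p = 0.00531). Eng, endoglin, was lower at -0.32 (SE 0.13, adjusted p = 0.0453). Rgs5 minus the mean of the 9 endothelial genes, which a constant shift of an array does not alter, was 0.80 ± 0.505 in saline and 3.42 ± 0.25 after cerulein (SD, n = 6 each). The groups did not overlap, and the widening of 2.62 passed (p = 0.00216 in a two-sided exact permutation test, its lowest possible value, or 0.00866 adjusted over 4 pairs). With the mean of kept probe sets it was 1.70 (adjusted p = 0.00433).

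Cspg4 (NG2), a proteoglycan used to identify pericytes, never exceeded 3.06 with either of its 2 probe sets. At this brightness neither its presence nor a change could be measured. The same held for 10 of 15 other pericyte and mural genes, among them Notch3, Kcnj8 and Mcam. Of the 5 that were tested 2 rose, 1 fell and 2 did not pass (1 rose and 1 fell with equal medians). Gucy1a1 and Gucy1b1 encode the nitric oxide receptor of mural cells. Gucy1a1 was at most 3.91 on the saline arrays and, set against log2 4, at least 1.42-fold higher after cerulein (adjusted p = 0.000196). Like 2 others of the 5, it passed the filter through the cerulein arrays alone. Gucy1b1 was 0.73 higher (SE 0.18, adjusted p = 0.00264) but was not called with equal medians. Vtn, for vitronectin, a plasma protein also made in liver, fell by 1.70 (SE 0.23, adjusted p = 2.99e-05), on each scaling.

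Acta2, the actin of smooth muscle and myofibroblasts, changed less. Its signals were 6.03, 6.48 and 4.35 in NHsd saline and 6.18, 5.74 and 5.69 in J saline. In the cerulein groups they were 6.40, 6.62 and 6.23 in NHsd and 6.76, 6.78 and 6.85 in J. NHsd saline replicate 3 lay far below the other controls, NHsd saline replicate 2 within the cerulein range, and the 3 J cerulein arrays close together. In the mean of both substrains Acta2 was 0.86 higher (SE 0.28, adjusted p = 0.0163), and 0.54 higher without NHsd saline replicate 3 (adjusted p = 0.00454). The call ended with equal medians (0.28, adjusted p = 0.381), after quantile normalization (0.29, adjusted p = 0.381) and when dim genes were left in (adjusted p = 0.0665).

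Within the substrains Acta2 was not called, at 0.80 in NHsd (SE 0.40, adjusted p = 0.109) and 0.93 in J (SE 0.40, adjusted p = 0.0662). The NHsd value dropped to 0.16 without NHsd saline replicate 3 (adjusted p = 0.540) and grew to 1.23 without NHsd saline replicate 2 (adjusted p = 0.0184). In J all cerulein arrays lay above all saline arrays. There the gene was called when the J arrays were fitted alone (adjusted p = 0.00481), without NHsd saline replicates 2 or 3 (0.0334 and 0.00152), with the replicate number as a term (0.0494) and with a filter at log2 6 (0.0488). The name of the Acta2 probe set ends in _s_at, which marks probes that may bind more than 1 transcript; what else it binds was not tested. The other 2 Acta2 probe sets stayed between the floor and 2.52.

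Tagln, an actin-binding protein of smooth muscle, lay close to log2 4 throughout. Its signals were 4.13, 3.97 and 3.90 in NHsd saline and 3.85, 4.13 and 4.37 in J saline. Cerulein arrays gave 4.05, 4.21 and 3.98 in NHsd and 4.85, 4.51 and 4.43 in J. The NHsd groups overlapped, and the J cerulein arrays lay just above the J saline arrays. Tagln was 0.08 higher in NHsd (SE 0.17, adjusted p = 0.723) and was called in J at 0.48 (SE 0.17, adjusted p = 0.0325), and its direction turned with equal medians to -0.51 in NHsd (adjusted p = 0.0468) and -0.095 in J (adjusted p = 0.712). The call in J ended with no filter (adjusted p = 0.0523), with the J arrays alone (0.0823), with the replicate number as a term (0.0509), and without J cerulein replicate 1 (0.0962), J saline replicate 1 (0.124) or J saline replicate 2 (0.0660). Acta2 minus Tagln on the same arrays was 0.58 higher after cerulein, which did not pass (exact permutation p = 0.0909, adjusted p = 0.182 over 4 pairs) but did without NHsd saline replicate 2 (0.75, adjusted p = 0.0390).

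Des encodes desmin, the muscle-type filament that also marks stellate cells. Its signals were 4.37, 3.995 and 4.26 in NHsd saline and 3.53, 3.66 and 3.58 in J saline. After cerulein they were 3.49, 3.53 and 3.53 in NHsd and 3.43, 3.30 and 3.53 in J. The NHsd saline arrays lay above the other 9, and only 2 arrays exceeded log2 4, so Des was not tested. Tested without the filter, Des was called lower in NHsd (-0.69, SE 0.10, adjusted p = 0.00132) and was not called in J (-0.17, SE 0.10, adjusted p = 0.267). The second Des probe set was at the floor on all arrays.

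Of 19 other genes of the contractile apparatus with a probe set, 10 were tested. Of these 6 rose, 1 fell and 3 did not pass (4 rose and 1 fell with equal medians). The counts as deposited are near the shares over all tested genes, 59.4% higher and 10.1% lower, and do not set this list apart. Actn1, alpha-actinin of focal contacts, was 1.58 higher (SE 0.19, adjusted p = 1.55e-05) and Vcl, vinculin, 1.36 higher (SE 0.22, adjusted p = 0.000129). Pdlim7, an adaptor of actin filaments, was lower at -0.58 (SE 0.18, adjusted p = 0.0130). The smooth muscle genes Myh11, Cnn1, Actg2, Lmod1, Smtn, Synpo2, Myocd and Pdlim3 never exceeded log2 4, and neither did any of 7 skeletal muscle genes. Among 4 other tested genes for intermediate filaments and their partners, the lamin gene Lmna was 1.38 higher (SE 0.15, adjusted p = 7.18e-06). Nes, nestin, was 0.44 higher (SE 0.14, adjusted p = 0.0127) but -0.14 with equal medians. Cryab, the chaperone that binds desmin, was lower at -1.65 (SE 0.15, adjusted p = 1.23e-06).

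**Figure D2:**
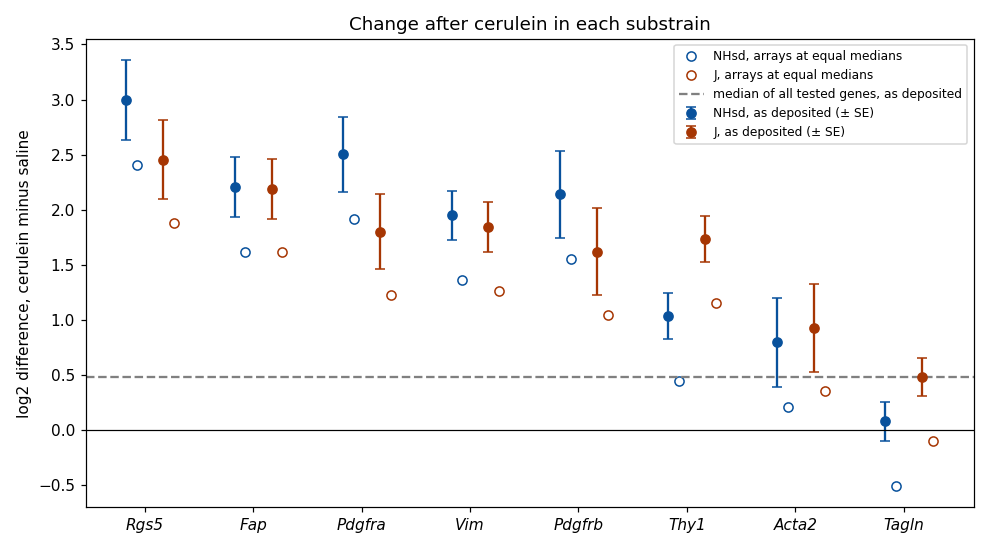
Log2 difference, cerulein minus saline (y axis), of the 8 tested genes (x axis) in NHsd and J; filled points are values as deposited with SE, open points values with arrays at equal medians, and the dashed line the median of all tested genes (0.49). Rgs5 is highest at 3.00 and 2.46, Acta2 straddles the dashed line within its SE in NHsd, and the open points of Tagln lie below 0.

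Genes that define fibroblasts rose with the receptors. Of 12 tested fibroblast identity genes 11 rose and none fell (10 with equal medians), with a median of 1.97. Mfap5, a microfibril protein, rose by 3.17 (SE 0.10, adjusted p = 1.19e-09) and Col14a1, a collagen of fibril surfaces, by 2.66 (SE 0.22, adjusted p = 6.47e-07). All 12 tested activated fibroblast genes rose (11 with equal medians), by a median of 2.47, and 4 others, Lrrc15, Tnc, Col12a1 and Inhba, never exceeded log2 4. Lox, the collagen-crosslinking lysyl oxidase, went from at most 2.75 on the saline arrays to at least 5.21 on the cerulein arrays (adjusted p = 3.91e-08), and Postn, periostin, from at most 3.60 to at least 7.51 (adjusted p = 4.83e-08). Their saline signals were below log2 4, so the size of either change is not exact. Both passed the filter through the cerulein arrays alone, as did 4 of the 12 activated fibroblast genes in all and 1 of the 12 fibroblast identity genes, so those calls were partly set by the filter.

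Markers of the quiescent, vitamin A-storing stellate cell were mostly dim. Of 9 with a probe set, 6 never exceeded log2 4, among them Lrat, the enzyme that makes retinyl esters, Gfap and Ngfr. The 2 tested, Cygb (0.51, SE 0.14, adjusted p = 0.00580) and Rdh10 (0.27, SE 0.11, adjusted p = 0.0429), rose as deposited, and with equal medians their values were -0.068 and -0.31. Among other cell types, 3 of 4 tested duct genes rose on each scaling, such as Epcam, an epithelial adhesion protein, by 2.28 (SE 0.13, adjusted p = 4.33e-08), and Krt7, a duct keratin, by 1.88 (SE 0.17, adjusted p = 1.24e-06). Of 3 tested mesothelial genes Wt1, tested through its cerulein arrays alone, was at least 1.33-fold higher (adjusted p = 0.00264; not called with equal medians) and Upk1b was lower at -1.10 (SE 0.18, adjusted p = 0.000148). Of 3 adipocyte genes none passed (1 fell with equal medians), and of 2 B cell and lymph node genes both Cxcl13 and Ms4a1 rose (Cxcl13 with equal medians), Ms4a1 tested through its cerulein arrays alone. Of 10 acinar genes 7 fell and 1 rose (9 and none with equal medians, 4 and none with quantile normalization), with Cela1, an elastase, at -0.71 (SE 0.07, adjusted p = 4.36e-06), Cpa1, a carboxypeptidase, at -0.47 (SE 0.09, adjusted p = 0.000526) and Rbpjl, an acinar transcription factor, 0.90 higher (SE 0.18, adjusted p = 0.000678; not called with equal medians). The part of these other cells in the changes of the 10 genes was not tested.

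**Figure D3:**
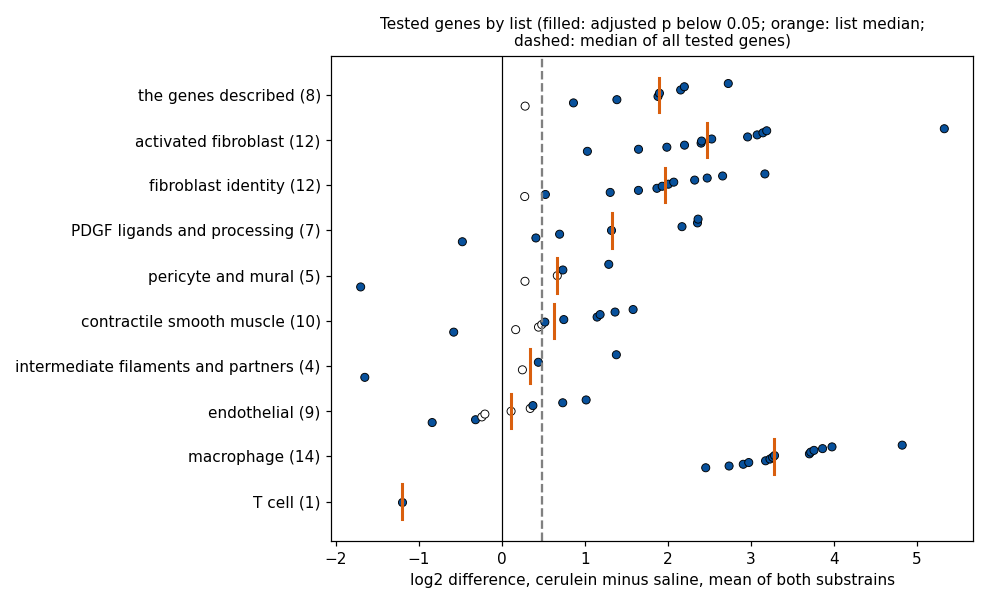
Log2 difference, cerulein minus saline, mean of both substrains (x axis), for each tested gene of 10 lists (y axis, number of tested genes in brackets); filled points passed at an adjusted p below 0.05, orange lines are list medians and the dashed line the median of all tested genes. The macrophage list has the highest median, 3.27. The fibroblast lists and the genes described have medians between 1.89 and 2.47, and PDGF ligands and processing 1.32. Medians are 0.67 for pericyte and mural, 0.63 for contractile and 0.11 for endothelial genes.

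One array set the spread of several genes. J cerulein replicate 1 differed from the mean of the other 2 J cerulein arrays by -1.68 for Pdgfrb, -1.27 for Pdgfra, -1.06 for Rgs5 and -0.50 for Fap, but by 0.05 for Vim, 0.38 for Tagln and -0.05 for Acta2. Of the 8 tested genes 5 were lower there than on both other arrays and 1 was higher than on both. Over all tested genes 43.9% were lower and 42.3% higher, so this array often lay outside the other 2 in either direction. Lower than on both were 10 of 12 activated fibroblast genes (median difference -1.42), 9 of 12 fibroblast identity genes and 7 of 9 endothelial genes (median difference -0.71). So were 3 of 3 mesothelial genes (-0.78), 8 of 10 acinar genes (-0.25) and 4 of 14 macrophage genes (0.23). Without this array the change in J was 2.23 for Pdgfra, 2.18 for Pdgfrb, 2.81 for Rgs5 and 2.36 for Fap, each called (adjusted p from 5.97e-05 for Pdgfra to 6.47e-05 for Rgs5).

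The difference of the cerulein effect between substrains, J minus NHsd, was called by limma for none of the 8 genes, and for 0.0118% of all genes tested. At an unadjusted p under 0.05, 1 of the 8, Thy1, passed, with 0.70 (SE 0.30, adjusted p = 0.702). The share of all tested genes that passed at that level was not counted. On simulated data the limma test of this difference recovered 29.9% of genes whose effects differed 2-fold. Pdgfra had -0.70 (SE 0.48, adjusted p = 0.741), Rgs5 -0.54 (SE 0.51, adjusted p = 0.782) and Pdgfrb -0.52 (SE 0.56, adjusted p = 0.808), and without J cerulein replicate 1 these became -0.28, -0.19 and 0.037. Fap had -0.016 (SE 0.38, adjusted p = 0.994).

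J against NHsd after cerulein, limma called none of the 8 genes either (0.223% of all genes tested, 0.165% higher and 0.0588% lower). Thy1 was 0.72 higher in J (SE 0.21, adjusted p = 0.295), Tagln 0.52 higher (SE 0.17, adjusted p = 0.374) and Acta2 0.38 higher (SE 0.40, adjusted p = 0.735). For these 3 genes every J cerulein array lay above every NHsd cerulein array, and 2 of the 3, Thy1 and Tagln, passed at an unadjusted p under 0.05. The share of all tested genes that did either was not counted, so neither count sets these genes apart. In saline limma called none of the 8 (0.0588% of all genes tested, 0.0118% higher and 0.047% lower), none passed at an unadjusted p under 0.05, and the arrays of the substrains overlapped for each. The largest value was 0.52 for Pdgfra (SE 0.34, adjusted p = 0.848).

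The likeness of patterns was measured as the root mean square (RMS) difference between log2 values, each gene centred on its own mean over the 12 arrays. Among the 8 genes the closest pair was Fap and Vim (RMS 0.34), followed by Pdgfra with Fap (0.37) and Pdgfra with Pdgfrb (0.38), and the farthest was Rgs5 with Tagln (1.35). Outside the 10 genes, the closest to Pdgfra was C1s1, a complement protease (RMS 0.21), then Notch2 (0.25). For Pdgfrb these were Ptgfrn (0.21) and Akap13 (0.24). For Rgs5 they were the cholesterol exporter Abca1 (0.21) and Cybb, of the phagocyte oxidase (0.27). For Fap they were Rrm2, a subunit of ribonucleotide reductase, and Gask1b (0.19 and 0.20), and for Thy1 Pla2g4a, a cytosolic phospholipase, and Slc39a4, a zinc transporter (0.10 and 0.18). For Vim the closest with a name of known function was Slbp, the histone mRNA binding protein (0.18), second to 9530068E07Rik (0.16). The nearest patterns to Acta2, Ap1m1 and Cd200, were farther away (0.25 and 0.34), and those to Tagln, Ogfr and Prcp, followed a gene with little range (both 0.15). Genes that share the treatment difference are close by this measure whatever cells they come from.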

How the data were processed

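The values are log2 probe set signals as deposited by the authors. GCRMA and Partek appear, with no version, role or order, per the submitters' processing notes; other steps are not given in the sources used here. Probe sets with 1 gene symbol (34958 of 45101) were kept where they exceeded log2 4 on at least 3 arrays, and the one with the highest mean stood for its gene (8505 genes). One mean per group was fitted with limma 3.58.1 in R 4.3.3 to all 12 arrays (8 residual degrees of freedom, intensity trend), with Benjamini-Hochberg adjustment over all genes. The number of arrays limits the precision. Gaps between 2 genes on an array used exact permutation tests over 924 assignments; 2 of 6 intended pairs involved an untested gene and were dropped. In simulated data 200 of 8505 genes were changed. That is far fewer than the 69.4% called here in the mean of both substrains, so recovery in these data may differ. For the mean of both substrains this procedure recovered 98.5% of genes changed 4-fold and 83.6% changed 2-fold. Within a substrain it recovered 59.7% (NHsd) and 67.2% (J) of 2-fold changes. For the difference of effects it recovered 86.4% at 4-fold, 29.9% at 2-fold and 1.49% at 1.5-fold.

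The 10 genes, the gene lists and the tests were chosen with earlier results of these data known. Named list genes are up to 2 called genes with the largest rise and up to 2 with the largest fall, and, for patterns, the 2 nearest genes; Pdgfc and Pdgfa, and genes listed as too dim, fall outside this rule. Alternatives were leaving out each array, the replicate number as a term, fitting only the groups compared, and averaging the probe sets of a gene. Others were robust moderation, dropping the intensity trend, a filter at log2 6 or none, equal medians of the tested genes, and quantile normalization.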

Additional observations from a re-analysis of the deposited data

How the results depend on the processing

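The 6 genes Pdgfra, Pdgfrb, Fap, Rgs5, Vim and, in J and in the mean of both substrains, Thy1 kept their direction and call after cerulein under every alternative in which they were tested; Acta2, Tagln and Thy1 in NHsd did not, as given with their results. Scaling reversed Tagln to -0.31 and -0.30 (quantile normalization and equal medians) in the mean, -0.54 and -0.51 in NHsd and -0.081 and -0.095 in J, and turned J minus NHsd in saline to -0.035 and -0.059 for Fap and -0.041 and -0.047 for Thy1. The mean of probe sets reversed Pdgfra minus Pdgfrb to -0.87, raised Fap minus Pdgfra to 1.19 and turned the substrain difference of Vim to 0.016. With the arrays at equal medians limma called 2262 genes higher and 3072 lower, and with quantile normalization 2384 and 2905, against 5049 and 855 as deposited. With no filter 8 of the 10 genes were called in the mean, 6 higher and 2, Des and Cspg4, lower.

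Leaving out each array gave 7 to 8 genes called in the mean, 6 to 7 in NHsd, 6 to 8 in J and 0 in the other comparisons. Values that changed sign or call ranged, for the difference of effects, from -0.92 to 0.037 for Pdgfrb, -0.25 to 0.20 for Fap, -0.30 to 0.77 for Acta2 and -0.27 to 0.18 for Vim. In saline they ranged from -0.056 to 0.39 for Pdgfrb, -0.20 to 0.24 for Fap, -0.39 to 0.68 for Acta2, -0.0081 to 0.25 for Tagln and -0.013 to 0.050 for Thy1. After cerulein they ranged from -0.47 to 0.25 for Pdgfra, -0.78 to 0.18 for Pdgfrb, -0.24 to 0.17 for Fap and -0.40 to 0.30 for Rgs5. The gaps ranged from 0.17 to 0.46 for Pdgfra minus Pdgfrb, -0.076 to 0.19 for Fap minus Pdgfra, 0.34 to 0.75 for Acta2 minus Tagln and 2.42 to 2.69 for Rgs5 minus the endothelial mean. The cause of these changes was not tested, beyond the fewer arrays in each fit.

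With the replicate number as a block, 7, 6 and 7 genes were called in the mean, NHsd and J, as without it, with Acta2 called in J in place of Tagln, and 5086 genes higher and 866 lower in all. Whether the numbers pair the samples could not be decided from the correlation of deviations from group means. It exceeded 0.1 in 6 of 18 same-numbered pairs and in 8 of 36 other pairs, with medians of 0.016 and 0.011. Of the 12 arrays, 6 correlated best with an array of their own number. Signals near log2 4 (Tagln, Des, Thy1 in saline) and below (Cspg4) limit what can be measured.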
